A study of Homo sapiens with 15 samples.

Results

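Histone genes of the HIST clusters were followed across 5 groups of the TF-1 cell line, a human erythroleukaemia line that depends on GM-CSF or related cytokines for growth. Members were rows of the deposited expression table whose symbol begins with HIST1H, HIST2H, HIST3H or HIST4H, that are not named as pseudogenes, and that reached 1 TPM in at least 3 of the 15 libraries. TPM is a transcript abundance scaled for transcript length and to a fixed library total. Of 76 such symbols 39 were members, out of 14881 tested symbols in all, and each member stood on a single row. They were 3 of 6 H1 symbols, 10 of 17 H2A, 12 of 23 H2B, 9 of 15 H3 and 5 of 15 H4. The groups, of 3 libraries each, were unedited Parental cells and isogenic base-edited lines named for their mutation, IDH1R132H, IDH2R140Q, IDH2R140W and IDH2R172K. GM-CSF was given to Parental cells at 2 ng/ml and left out for the edited lines, so the effects of genotype and of medium cannot be told apart against Parental, whereas the 4 edited lines shared a medium. The labels do not say whether an edited line is a single clone, nor whether its 3 libraries are separate cultures. The spread that enters each p-value is then that among these libraries alone and may be technical.

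Core histones H2A, H2B, H3 and H4 form the protein spool of the nucleosome, and linker histone H1 binds where DNA enters and leaves it. Most of their genes are replication-dependent: they lie in clusters, have no introns, are transcribed mainly in S phase, and give mRNAs that end in a conserved stem-loop bound by SLBP in place of a poly(A) tail. Some of these genes also make polyadenylated transcripts, which rest on a downstream poly(A) signal and are known from differentiated or non-dividing cells. The libraries here were poly(A)-selected, which favours polyadenylated RNA over the stem-loop-ended mRNA that carries most of the replication-dependent supply. How much stem-loop-ended mRNA was carried over was not tested. In bulk RNA, fewer cells with a transcript and less of it per cell cannot be told apart.

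The stem-loop is shown because it marks the end at which the mRNA normally lacks a poly(A) tail. The run GG, any 2 bases, CTTTT, any base, AG, any 2 bases, CC was found on the sense strand in an annotated GENCODE release 29 transcript of 15 of the 39 members and in 0.087% of 83129 protein-coding transcripts. In 9 members an annotated transcript ran over 300 bases past the stem-loop, and 7 of these 9 held AATAAA or ATTAAA in their last 50 bases. The examples below, with the stem-loop in capitals, show the 4 forms that occurred.
HIST1H2AC: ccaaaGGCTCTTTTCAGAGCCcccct
HIST1H2BD: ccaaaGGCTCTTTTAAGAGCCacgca
HIST1H4H: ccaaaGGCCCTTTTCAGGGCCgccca
HIST1H2AG: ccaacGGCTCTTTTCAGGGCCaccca
The form of HIST1H2AC was shared by 9 members, that of HIST1H2BD by 3, that of HIST1H4H by 2, and that of HIST1H2AG was found in 1. The annotated transcript runs 1128 bases past it in HIST1H2AC, 1655 in HIST1H4H and 1761 in HIST1H2AG, and 39 in HIST1H2BD. HIST1H1C and HIST1H2BK have only short annotated transcripts without these letters, from which nothing follows about their 3′ ends.

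The promoters of 4 members on which the results turn are shown as the 160 bases before the RefSeq start (GRCh38.p14), with 3 motifs in capitals on either strand: the octamer ATTTGCAT bound by OCT1, the CCAAT box and the TATA box TATAAA. HIST1H1C (minus strand, chr6:26056471-26056630) and HIST1H2BK (minus strand, chr6:27146856-27147015) were the most abundant members. HIST1H2BG (minus strand, chr6:26216689-26216848) and HIST1H2AE (plus strand, chr6:26216761-26216920) are divergent neighbours that share part of this sequence.
HIST1H1C: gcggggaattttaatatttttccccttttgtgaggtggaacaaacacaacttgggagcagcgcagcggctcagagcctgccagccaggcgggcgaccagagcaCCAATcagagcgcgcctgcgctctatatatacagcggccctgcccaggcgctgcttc
HIST1H2BK: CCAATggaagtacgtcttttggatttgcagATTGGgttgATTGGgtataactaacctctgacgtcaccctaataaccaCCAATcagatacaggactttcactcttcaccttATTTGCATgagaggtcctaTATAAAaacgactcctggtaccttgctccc
HIST1H2BG: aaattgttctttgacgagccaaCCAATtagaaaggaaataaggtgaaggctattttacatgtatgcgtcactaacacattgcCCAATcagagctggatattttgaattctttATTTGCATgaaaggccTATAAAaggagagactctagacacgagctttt
HIST1H2AE: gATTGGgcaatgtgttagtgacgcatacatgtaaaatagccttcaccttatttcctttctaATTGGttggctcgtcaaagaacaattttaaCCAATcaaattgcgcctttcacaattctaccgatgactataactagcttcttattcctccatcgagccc
A RefSeq promoter was matched for 33 members, and 35116 promoters of all genes were searched over the same length. The octamer lay in 12 of the 33, namely in 9 of 12 H2B and 3 of 9 H2A promoters and in 0 of the 12 of H1, H3 and H4, against 1.05% of all promoters. The CCAAT box lay in 30 of 33, against 24.5% of all, and TATAAA in 19 of 33, against 7.04%. These matches describe the sequence and are not binding sites by themselves.

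Members were low in these libraries. Together they summed to between 123 TPM in IDH2R140W replicate 2 and 382 TPM in IDH2R172K replicate 3, or 0.0123% to 0.0382% of a library. Mean levels over the 15 libraries ran from 0.486 TPM for HIST1H2BB to 47.5 TPM for HIST1H2BK, with a median of 1.55. Only 8 members exceeded 5 TPM, 10 lay between 2 and 5, and 21 at 2 or below. By the third-highest TPM, which decides membership, HIST1H2AG (1.10), HIST1H2BB (1.11) and HIST1H2BI (1.16) stood just inside, and HIST3H2BB (0.96), HIST1H3E (0.85) and HIST1H2AB (0.82) just outside. Of the members, 38 lie within chr6:26020490-27893843 and 1, HIST3H2A, on chromosome 1. None of the 16 HIST2 symbols was a member, since all 30 of their rows are listed at 0 in every library. That includes HIST2H2BE, an H2B gene with a known poly(A) transcript. Of these 16 symbols 14 stood on more than 1 row, and 67.7% of the 1118 protein-coding symbols on more than 1 row were listed at 0 in all libraries, against 7.8% of the 17243 on 1 row. RFC2, a clamp loader subunit that dividing cells use, the erythroid factor GATA1 and the GM-CSF receptor subunit CSF2RA are also on 2 rows each and listed at 0. A listed 0 is therefore not read as absence, and its cause was not tested.

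TPM keeps no read number, so the depth behind each value is unknown and no counting interval is given. Between 12796 and 13792 symbols reached 1 TPM in a library. Parental replicate 2 and IDH2R140W replicate 3 stood apart, with median-ratio size factors of 0.831 and 0.864 against 0.954 to 1.11 in the other libraries. Of the TF-1 markers, KLF1, TAL1, CD34, KIT, CSF2RB, HBG2 and EPOR were expressed in all libraries. Against Parental 1 of these 7 rose in each line, CD34 or, in IDH2R140W, the GM-CSF receptor subunit CSF2RB. HBG2, a fetal globin, fell in IDH1R132H, IDH2R140Q and IDH2R140W, and KIT, a stem cell factor receptor, in IDH2R140Q and IDH2R172K. HBG2 stood at 706 to 1134 TPM in Parental, 18.4 to 29.9 in IDH1R132H, 5.31 to 7.49 in IDH2R140Q, 113 to 158 in IDH2R140W and 607 to 728 in IDH2R172K. The stem and progenitor marker CD34 was measured at 118 to 177 TPM in Parental, 474 to 544 in the libraries of IDH1R132H, IDH2R140Q and IDH2R172K, and 236 to 297 in IDH2R140W. The part of these marker differences in the histone values was not tested. Among markers of other cells, MS4A1 was listed at 0 throughout, CD3E, CD14 and EPCAM stayed under 1 TPM and COL1A1 reached at most 1 TPM, whereas PECAM1 was tested and not called in any line against Parental. The coding sequence nearest to that of each of 36 members was 83.5% to 94.2% identical over the same length (median 89.2), so reads may be split between copies and a single member's value is uncertain to that extent.

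All differences were taken between group means of log2(TPM + 1), a scale that shrinks the change of a low gene. A gene rose or fell where limma's adjusted p (Benjamini-Hochberg, over all 14881 symbols) was under 0.05 and the log2 difference at least 1, and not called means that either was missed. In IDH1R132H 2 members rose and 2 fell, against 7.74% of all genes that rose and 3.09% that fell. In IDH2R140Q 4 rose and 4 fell (10.3% of members each way), against 7.56% and 2.47% of all genes. In IDH2R140W 0 rose and 3 fell (7.69%), against 2.68% and 2.1%. In IDH2R172K 7 rose (17.9%) and 0 fell, against 6.36% and 2.96%. The members that rose in IDH1R132H, at 5.13%, were thus fewer than the share of all genes, and the other shares with any call lay above it, without a test of that difference. The same Parental libraries enter all 4 comparisons. Over them 15 members were called in at least 1, of which 10 in 1, 4 in 2 and HIST1H1C in all 4. The matching shares of all genes over these 4 comparisons were not computed, so the counts are not read as unusual. Against Parental the median of all genes lay at 0.16, 0.23, 0.03 and 0.13 in the order above, and at about 0 after median-ratio scaling. Relative to that median the members' median differed by -0.15, 0.03, -0.19 and 0.24. Without Parental replicate 2 the called members numbered 2 in IDH1R132H, and in IDH2R172K they numbered 4 without Parental replicate 3 and 4 after median-ratio scaling. The 39 members thus did not move as a block, and in each line most were not called (35, 31, 36 and 32).

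**Figure D1:**
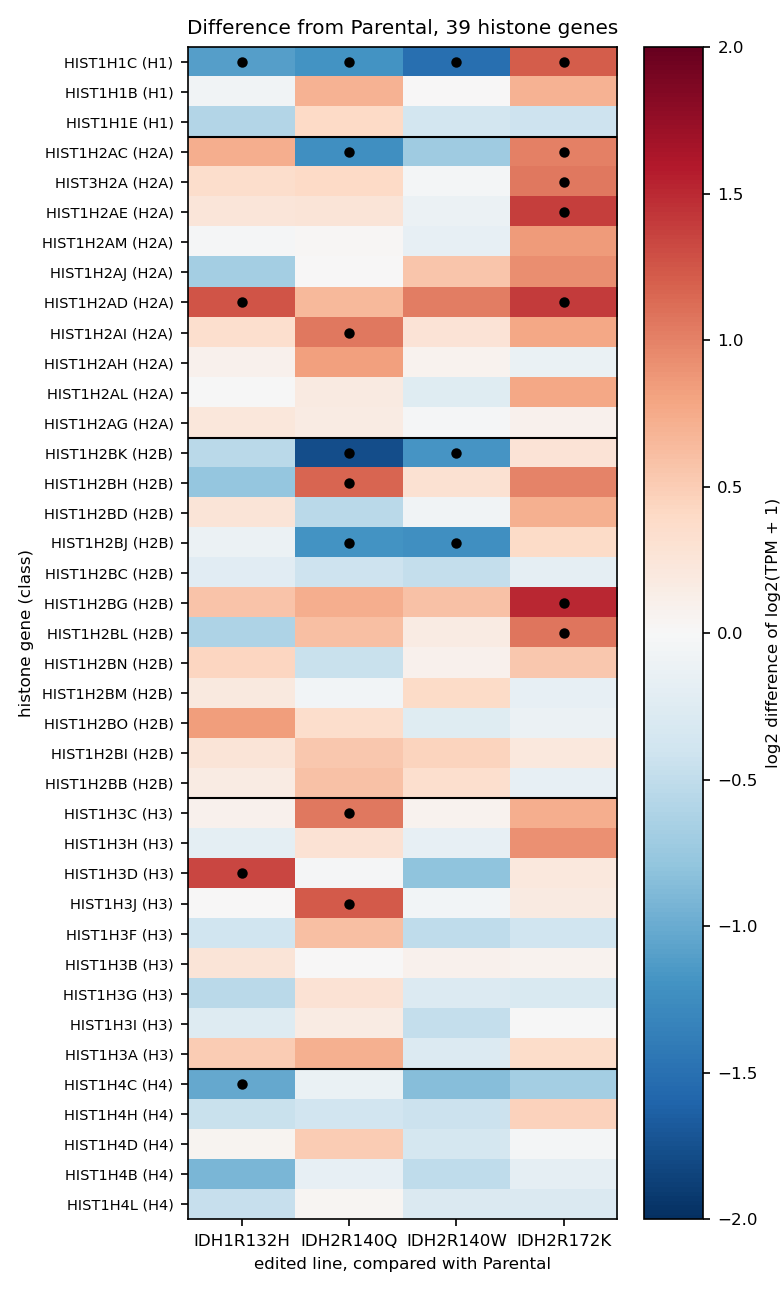
Difference of mean log2(TPM + 1) from Parental (colour, red for higher and blue for lower) for the 39 histone genes in each edited line, ordered by class and, within a class, by mean level. Black dots mark the calls, 4, 8, 3 and 7 from left to right, and HIST1H1C in the top row is the gene with a dot in every column.

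Among the 3 H1 members, HIST1H1C, which encodes H1.2, gave 81.2% to 98.6% of the class sum in each library. The linker histone genes H1F0 and H1FX, outside the clusters, averaged 117 and 47.8 TPM over the 15 libraries and are not in this sum. HIST1H1C averaged 44.0 TPM. It was measured at 42.5, 59.7 and 43.6 TPM in Parental, 20.8, 22.6 and 22.4 in IDH1R132H, 18.8, 21.3 and 20.9 in IDH2R140Q, and 20.5, 12.7 and 16.5 in IDH2R140W. In IDH2R172K it stood at 114, 110 and 114 TPM. Every library of IDH2R172K lay above, and every library of the other edited lines below, all 3 Parental libraries. HIST1H1C fell by 1.10 ± 0.15 (SE, n = 3 against 3) in IDH1R132H (limma adjusted p = 4.22e-05), by 1.20 ± 0.15 in IDH2R140Q (adjusted p = 2.16e-05) and by 1.50 ± 0.15 in IDH2R140W (adjusted p = 5.55e-06). It rose by 1.21 ± 0.15 in IDH2R172K (limma adjusted p = 2.07e-05). Without Parental replicate 2, the highest of its group, the difference in IDH1R132H was -0.94, and with library weights it was -0.98. Neither was called, while the other 3 calls held under every alternative tried. HIST1H1B (H1.5) and HIST1H1E (H1.4), the other H1 members, averaged 1.04 and 0.806 TPM and were not called in any comparison.

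**Figure D2:**
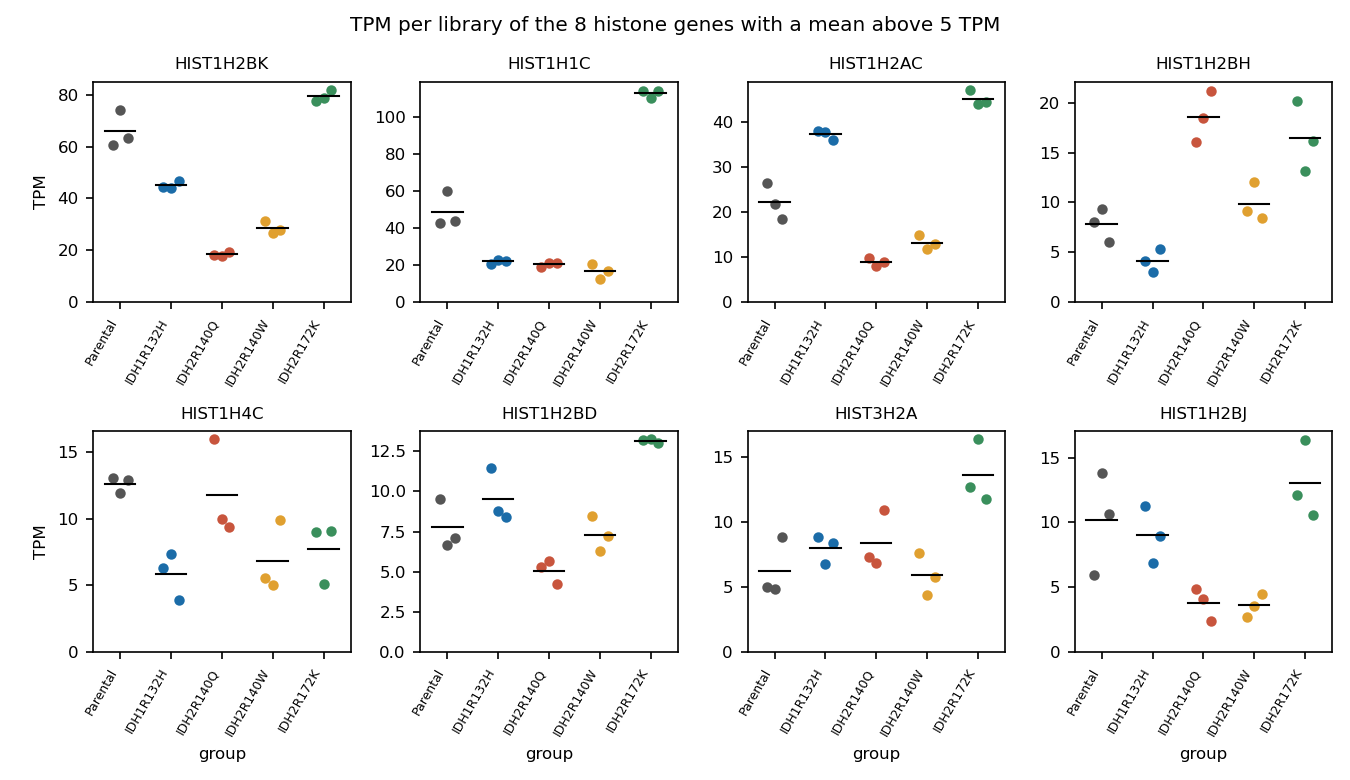
TPM in each of the 15 libraries (points, coloured by group) and the group mean (line) for the 8 histone genes with a mean above 5 TPM, each on its own linear axis from 0. HIST1H1C stands at 110 to 114 TPM in IDH2R172K and at 12.7 to 22.6 TPM in the other edited lines, and HIST1H2BH is highest in IDH2R140Q.

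Among H2A genes, HIST1H2AC was the most abundant. It stood at 26.6, 21.7 and 18.5 TPM in Parental, 38.1, 37.8 and 36.1 in IDH1R132H, 9.75, 7.97 and 8.94 in IDH2R140Q, 14.9, 11.8 and 12.9 in IDH2R140W, and 47.1, 44.0 and 44.5 in IDH2R172K. No edited line overlapped Parental, and the lines lay on both sides of it. HIST1H2AC fell by 1.22 ± 0.12 in IDH2R140Q (limma adjusted p = 3.12e-06) and rose by 1.00 ± 0.12 in IDH2R172K (adjusted p = 2.07e-05). The rise is at the threshold: it was 0.85 after median-ratio scaling, 0.88 without Parental replicate 3, 0.99 without Parental replicate 2 and 0.97 without IDH2R172K replicate 1, none of them called. In IDH1R132H the difference was 0.73 and in IDH2R140W -0.70, under the threshold of 1 although the groups did not overlap.

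HIST3H2A, the H2A gene of the HIST3 cluster on chromosome 1, was measured at 5.0, 4.83 and 8.87 TPM in Parental and 12.7, 16.4 and 11.8 in IDH2R172K, with 4.40 to 10.9 TPM in the other lines. IDH2R172K lay above all other libraries. The rise there was 1.05 ± 0.24 (limma adjusted p = 0.00294), and it was 0.68 with library weights, 0.91 after median-ratio scaling, 0.94 without Parental replicate 1, 0.91 without Parental replicate 2 and 0.92 without IDH2R172K replicate 2, each short of the threshold. HIST1H2AE stood at 3.97, 1.66 and 1.38 TPM in Parental and 8.10, 6.41 and 7.25 in IDH2R172K, and at 1.40 to 4.68 TPM in the other lines. It rose in IDH2R172K by 1.38 ± 0.32 (limma adjusted p = 0.00341), a call that held under every alternative.

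The remaining H2A calls were of genes near 1 TPM. HIST1H2AI reached 2.78, 2.11 and 1.75 TPM in IDH2R140Q against 0.26, 0.69 and 0.71 in Parental, a rise of 1.05 ± 0.33 (limma adjusted p = 0.0197). The groups did not overlap, but the call was lost after median-ratio scaling (0.90), without IDH2R140Q replicate 1 (0.93) and without Parental replicate 1 (0.91). HIST1H2AD was listed at 0.37, 0 and 0 TPM in Parental, at 1.06, 5.04 and 0.49 in IDH1R132H and at 2.40, 0.74 and 3.22 in IDH2R172K. Its differences of 1.25 ± 0.47 and 1.40 ± 0.47 passed with limma adjusted p of 0.043 and 0.0295. They rest on single libraries: without IDH1R132H replicate 2 the first was 0.66, and without IDH2R172K replicate 3 the second was 1.13, with adjusted p of 0.214 and 0.113. Leaving out Parental replicate 2 or 3, or replicate 1 of the edited line, also took the adjusted p of either above 0.05, as did median-ratio scaling for the first (0.0501). The other 5 H2A members, HIST1H2AM, HIST1H2AJ, HIST1H2AH, HIST1H2AL and HIST1H2AG, were not called against Parental.

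H2B held both the most abundant member and the largest fall. HIST1H2BK was measured at 60.6, 74.1 and 63.2 TPM in Parental, 44.2, 44.0 and 46.9 in IDH1R132H, 18.3, 17.9 and 19.3 in IDH2R140Q, 31.2, 26.7 and 28.0 in IDH2R140W, and 77.6, 78.7 and 82.0 in IDH2R172K. The 5 groups did not overlap. It fell by 1.78 ± 0.09 in IDH2R140Q (limma adjusted p = 2.53e-09) and by 1.17 ± 0.09 in IDH2R140W (adjusted p = 3.1e-07), and both calls held under every alternative. The differences of -0.54 in IDH1R132H and 0.27 in IDH2R172K stayed under the threshold.

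HIST1H2BJ stood at 5.96, 13.8 and 10.7 TPM in Parental, 4.85, 4.12 and 2.40 in IDH2R140Q and 2.73, 3.57 and 4.50 in IDH2R140W. Both lines lay below every Parental library. It fell by 1.19 ± 0.29 in IDH2R140Q (limma adjusted p = 0.00413) and by 1.23 ± 0.29 in IDH2R140W (adjusted p = 0.00602). Without Parental replicate 2 these were -0.95 and -0.99, and without IDH2R140Q replicate 3 the first was -0.96, all uncalled. In IDH1R132H (6.83 to 11.3 TPM) and IDH2R172K (10.6 to 16.3 TPM) its libraries overlapped Parental.

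HIST1H2BH went the other way in IDH2R140Q. It was measured at 8.01, 9.38 and 6.03 TPM in Parental, 4.07, 3.06 and 5.35 in IDH1R132H, 16.03, 18.5 and 21.2 in IDH2R140Q, and 20.2, 13.2 and 16.1 in IDH2R172K. IDH1R132H lay below and the other lines named above Parental, with IDH2R140W (8.41 to 12.1 TPM) overlapping it. HIST1H2BH rose by 1.16 ± 0.21 in IDH2R140Q (limma adjusted p = 0.000479), which was 0.92 after median-ratio scaling and then not called. In IDH2R172K the difference was 0.99 and just under the threshold.

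In IDH2R172K HIST1H2BG and HIST1H2BL rose. HIST1H2BG was measured at 1.90, 1.27 and 0.88 TPM in Parental and 4.64, 6.22 and 6.01 in IDH2R172K, with 1.67 to 3.78 TPM in the other lines. IDH2R172K again lay above all other libraries, and the rise of 1.51 ± 0.24 (limma adjusted p = 0.000223) held under every alternative that tested it. HIST1H2BL stood at 1.86, 2.07 and 0.86 TPM in Parental and 2.52, 6.09 and 4.98 in IDH2R172K, a rise of 1.06 ± 0.26 (limma adjusted p = 0.00463). It was 0.96 after median-ratio scaling, 0.84 without Parental replicate 3, 0.85 without IDH2R172K replicate 2 and 0.98 without replicate 3 of that line, and was then not called. HIST1H2BD, a gene with known poly(A) transcripts, was at 9.55, 6.68 and 7.12 TPM in Parental, 5.26, 5.64 and 4.21 in IDH2R140Q and 13.2, 13.3 and 13.0 in IDH2R172K. Its differences of -0.53 and 0.70 against Parental were under the threshold, with groups that did not overlap. The other 6 H2B members, HIST1H2BB, HIST1H2BC, HIST1H2BI, HIST1H2BM, HIST1H2BN and HIST1H2BO, were not called in any comparison.

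H3 genes gave 3 calls against Parental. HIST1H3D was measured at 2.09, 3.72 and 1.65 TPM in Parental, 6.83, 6.90 and 9.18 in IDH1R132H, 3.23, 1.82 and 2.10 in IDH2R140Q, 1.30, 0.79 and 0.77 in IDH2R140W, and 1.70, 3.85 and 3.56 in IDH2R172K. All 3 IDH1R132H libraries lay above every other library. It rose there by 1.34 ± 0.26 (limma adjusted p = 0.000914), the call of this comparison that held under every alternative. HIST1H3D (chr6:26196840-26197250) and HIST1H2AD (chr6:26198851-26199243) lie on the minus strand within a few kilobases of each other.

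HIST1H3C was measured at 2.74, 4.07 and 2.96 TPM in Parental and 10.4, 7.28 and 6.22 in IDH2R140Q, a rise of 1.06 ± 0.30 (limma adjusted p = 0.0109). The groups did not overlap. After median-ratio scaling the difference was 0.84, without IDH2R140Q replicate 1 it was 0.87 and without Parental replicate 1 it was 0.97, none called. HIST1H3J stood at 0.87, 1.82 and 0.40 TPM in Parental and 3.15, 3.90 and 3.72 in IDH2R140Q. It rose by 1.23 ± 0.26 (limma adjusted p = 0.00185), with 1.00 and no call without Parental replicate 3. In the other lines HIST1H3J ranged from 0.44 to 1.64 TPM and overlapped Parental. HIST1H3H was at 3.53, 3.14 and 3.26 TPM in Parental and 6.72, 10.1 and 5.16 in IDH2R172K, which did not overlap, yet the difference of 0.91 was under the threshold. HIST1H3A, HIST1H3B, HIST1H3G and HIST1H3I, of 0.799 to 1.01 TPM on average, were not called in any comparison.

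Among H4 genes HIST1H4C was the most abundant, at 13.1, 11.95 and 12.9 TPM in Parental, 6.28, 7.34 and 3.89 in IDH1R132H, 15.97, 10.0 and 9.36 in IDH2R140Q, 5.57, 5.05 and 9.93 in IDH2R140W, and 8.98, 5.07 and 9.05 in IDH2R172K. All lines except IDH2R140Q lay below Parental. It fell in IDH1R132H by 1.03 ± 0.28 (limma adjusted p = 0.00776), with -0.81 and no call without IDH1R132H replicate 3. The differences of -0.85 in IDH2R140W and -0.68 in IDH2R172K were not called. HIST1H4H, at 1.37 to 7.43 TPM, and HIST1H4B, HIST1H4D and HIST1H4L, each averaging under 1 TPM, were not called in any comparison.

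Summed by class, H2B was the largest class in each group. Its sum was 104 ± 9.51 TPM (SD, n = 3) in Parental, 82.4 ± 5.50 in IDH1R132H, 60.8 ± 4.32 in IDH2R140Q, 63.0 ± 0.907 in IDH2R140W, with 142 ± 2.37 in IDH2R172K. The H1 sum was 50.3 ± 9.26 TPM in Parental, 17.7 ± 3.86 to 23.7 ± 1.80 in IDH1R132H and the IDH2R140 lines, and 115 ± 1.47 in IDH2R172K. H2A summed to 37.6 ± 5.05 TPM in Parental, 56.7 ± 0.271 in IDH1R132H, 31.5 ± 1.34 in IDH2R140Q, 29.8 ± 4.62 in IDH2R140W, with 81.8 ± 1.39 in IDH2R172K. For these 3 classes IDH2R172K was above all Parental libraries in each. H3 ran otherwise, at 14.7 ± 1.49 TPM in Parental, 19.4 ± 3.64 in IDH1R132H, 25.8 ± 5.15 in IDH2R140Q, 11.4 ± 1.63 in IDH2R140W, with 22.4 ± 1.06 in IDH2R172K. H4 was highest in Parental at 19.7 ± 0.0794 TPM, and overlapped it in IDH2R140Q at 18.6 ± 5.68, while IDH1R132H had 10.1 ± 2.21, IDH2R140W 11.7 ± 4.24 and IDH2R172K 16.4 ± 2.78. An exact two-sided permutation test of 3 libraries against 3 cannot go below p = 0.1, so these sums carry no test.

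A list of 7 members has known polyadenylated transcripts: HIST1H1C, HIST1H2AC, HIST1H2BC, HIST1H2BD, HIST1H2BJ, HIST1H2BK and HIST3H2A. They summed to 155, 185 and 155 TPM in Parental, 138, 130 and 135 in IDH1R132H, 67.1, 67.3 and 69.1 in IDH2R140Q, 87.4, 68.3 and 78.3 in IDH2R140W, and 281, 281 and 280 in IDH2R172K. The other 32 summed to 66.0, 59.9 and 57.4 TPM in Parental, 53.7, 57.2 and 60.4 in IDH1R132H, 99.7, 102 and 76.4 in IDH2R140Q, 49.8, 55.0 and 62.0 in IDH2R140W, and 97.2, 90.3 and 102 in IDH2R172K. In IDH2R140Q the 7 lay below and the other 32 above every Parental library, whereas in IDH2R172K both lay above. The 7 thus held 39.8% to 47.5% of the members' TPM in IDH2R140Q, against 55.4% to 75.7% in the libraries of the other groups.

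By calls, in IDH2R140Q 4 of the 7 fell and 0 rose, while 4 of the other 32 rose and 0 fell, against 7.56% of all genes that rose and 2.47% that fell. On log2(TPM + 1) a member averaging under 1 TPM in Parental cannot fall by 1. The 32 include such members, for example HIST1H2AD (0.123 TPM) and HIST1H2BB (0.263 TPM). The lack of falls among the 32 is therefore in part fixed by level, in every line. The median difference in IDH2R140Q was -1.19 for the 7 and 0.32 for the 32, beside 0.23 for all genes. After median-ratio scaling 1 of the 32 rose and 4 of the 7 fell. In IDH2R140W 3 of the 7 fell (median -0.70) and 0 of the 32 were called (median -0.09), beside a median of 0.03 and a share of 2.1% that fell for all genes. In IDH2R172K 3 of the 7 rose (median 0.70) and 4 of the 32 (median 0.21), beside a median of 0.13 and 6.36% that rose for all genes. After median-ratio scaling 1 of the 7, HIST1H1C, and 3 of the 32 rose there, beside 756 of all 14881 genes. In IDH1R132H 1 of the 7 fell while 2 of the 32 rose and 1 fell, against 7.74% and 3.09%. The list of 7 is not a split by annotated transcripts. The other 32 include HIST1H2BH, which rose in IDH2R140Q and whose annotated transcript runs 1640 bases past the stem-loop. By annotation, 9 members have a transcript over 300 bases past the stem-loop, and for 30 none is annotated. The 30 include the 24 members without the stem-loop in an annotated transcript, whose 3′ ends are therefore not known from it. This split thus does not separate long from short 3′ ends. Their medians in IDH2R140Q were 0.29 and 0.22. There 1 of the 9 rose and 1 fell, and 3 of the 30 rose and 3 fell. The 3 of the 30 that fell, HIST1H1C, HIST1H2BJ and HIST1H2BK, are on the list of 7 and have no annotated stem-loop. In IDH2R172K the medians were 0.91 and 0.21. Neither split was tested.

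**Figure D3:**
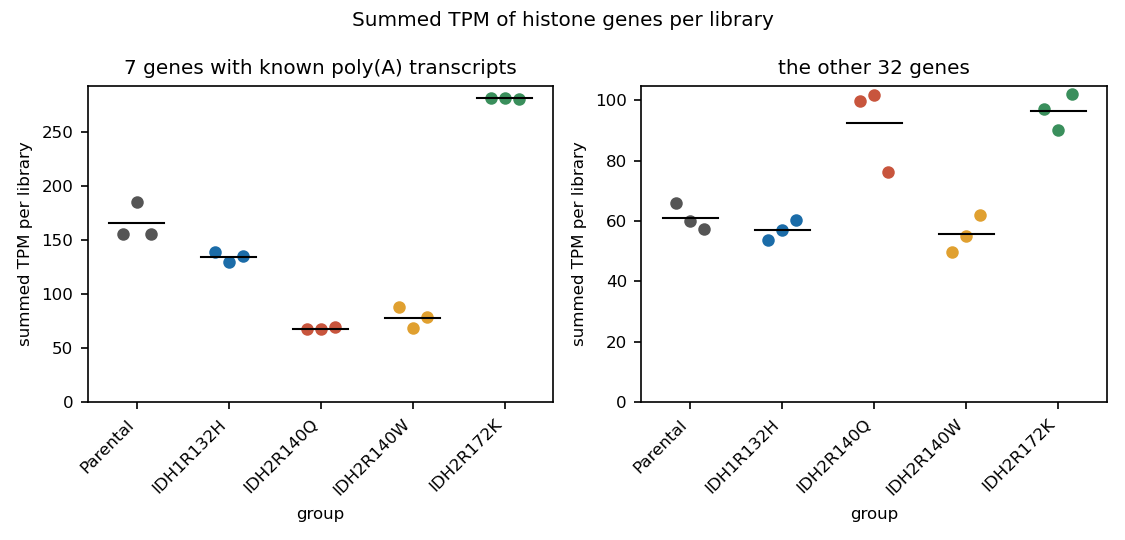
Summed TPM in each library (points) with the group mean (line) for the 7 histone genes with known polyadenylated transcripts (left) and for the other 32 (right), on linear axes from 0. IDH2R140Q is lowest on the left, at 67.1 to 69.1 TPM, and among the higher groups on the right, at 76.4 to 102 TPM.

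Between edited lines, which share their medium, 15 members were called in at least 1 of the 6 pairs (38.5%), against 19.8% of all genes. The number was 24 without IDH2R140Q replicate 3, a refit for which the share of all genes was not computed. Of IDH1R132H against IDH2R140Q, 4 members were higher and 3 lower in the former, against 2.4% and 3.1% of all genes. Against IDH2R140W 3 were higher and 1 lower in IDH1R132H, with 5.48% and 2.39% of all genes, and against IDH2R172K 1 was higher and 6 lower, with 4.17% and 3.32%. IDH2R140Q had 2 members higher and 0 lower than IDH2R140W (4.19% and 1.5% of all genes), and 2 higher and 6 lower than IDH2R172K (4.45% and 3.12%). IDH2R140W had 0 higher and 9 lower than IDH2R172K, against 2.44% and 4.42%. IDH2R172K had the highest mean of the 5 groups for 15 members and IDH2R140Q for another 15. The lowest mean lay in IDH2R140W for 14 and in IDH1R132H for 12. The same count over all genes was not made, so these counts are not read as particular to histone genes. IDH2R140Q, for example, lay above IDH2R140W for 31 of the 39 members and for 10262 of all 14881 genes.

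The largest of these differences was that of HIST1H1C, which was lower in IDH2R140W than in IDH2R172K by 2.72 ± 0.15 on the log2 scale (difference -2.72, limma adjusted p = 9.4e-09). Against IDH2R172K it was also lower in IDH2R140Q (-2.41) and IDH1R132H (-2.31). HIST1H2AC differed by -2.23 and HIST1H2BK by -2.05 between IDH2R140Q and IDH2R172K, and HIST1H2BD by -1.24. HIST1H3D was higher in IDH1R132H than in IDH2R140W by 2.14 ± 0.26 (limma adjusted p = 2.28e-05). HIST1H2BH was lower in IDH1R132H than in IDH2R140Q by 1.94 (difference -1.94), and HIST1H2BL was lower there than in IDH2R172K (-1.68). IDH2R140Q and IDH2R140W, which change the same residue, differed in HIST1H3J (1.29, limma adjusted p = 0.002) and in HIST1H3F (1.12, adjusted p = 0.0296). HIST1H3F was measured at 2.78, 2.68 and 1.81 TPM in IDH2R140Q and 1.86, 0.34 and 0 in IDH2R140W, groups that overlapped, and the call was lost without replicate 1 (1.04) or 2 (1.06) of IDH2R140Q and without replicate 2 (1.00) or 3 (0.79) of IDH2R140W. The other differences named here kept their calls under every alternative.

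Some H2A and H2B genes share a divergent promoter, from which both are transcribed outward, and in 6 pairs of members the matched RefSeq promoters overlap. HIST1H2AE and HIST1H2BG, whose promoter sequences are shown above, both rose in IDH2R172K. In the other 5 pairs at most 1 gene was called in a given line against Parental. HIST1H2AC fell in IDH2R140Q and rose in IDH2R172K, while HIST1H2BC, at 2.00 to 4.77 TPM in all libraries, had differences of -0.42 and -0.18. HIST1H2BJ fell in the IDH2R140 lines, while HIST1H2AG, at 0.47 to 1.38 TPM, differed by 0.17 and -0.02. HIST1H2BL rose in IDH2R172K and HIST1H2AI, its neighbour, in IDH2R140Q, with 0.77 and 0.61 for the partner in those lines, not called. HIST1H2AJ with HIST1H2BM, and HIST1H2AM with HIST1H2BO, were not called against Parental. HIST1H2BK and HIST1H2AH also lie head to head by their GENCODE positions, but HIST1H2AH had no matched promoter. HIST1H2BK fell in the IDH2R140 lines, while HIST1H2AH, at 0.41 to 3.43 TPM, differed by 0.83 in IDH2R140Q and 0.08 in IDH2R140W and was not called.

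**Figure D4:**
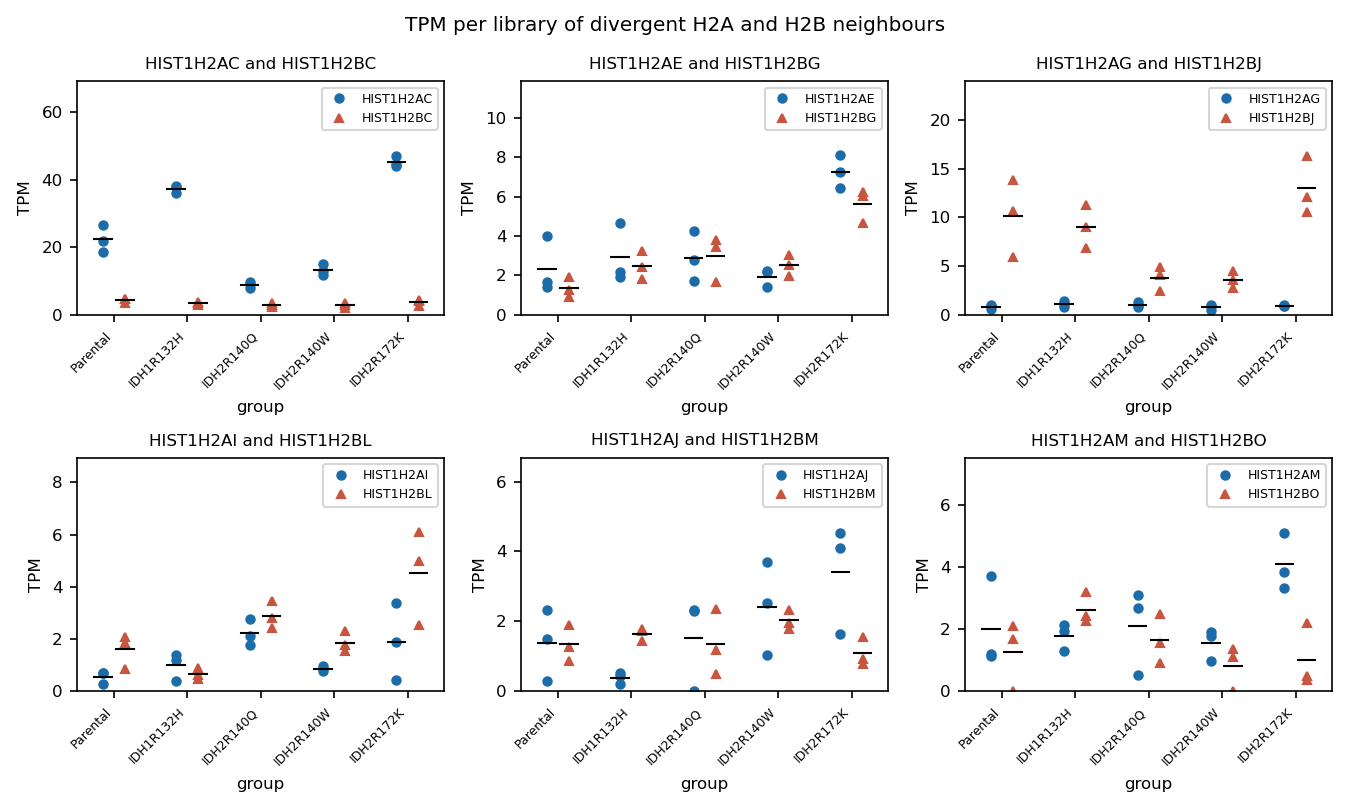
TPM in each library (points) and group mean (line) for the H2A gene (blue circles) and the H2B gene (orange triangles) of 6 divergent pairs with overlapping RefSeq promoters, on linear axes from 0. In the pair HIST1H2AE and HIST1H2BG both genes are highest in IDH2R172K, at 6.41 to 8.10 and 4.64 to 6.22 TPM, whereas HIST1H2BC stays at 2.00 to 4.77 TPM where HIST1H2AC ranges from 7.97 to 47.1 TPM.

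Of 21 genes for histone transcription and 3′ end processing, 1 rose in IDH1R132H, 2 in IDH2R140Q and 0 in the other lines against Parental, and 0 fell in any. The share of all genes that rose was 7.74% and 7.56% in those lines, and after median-ratio scaling 0 and 1 of the 21 rose. E2F1, a transcription factor of S-phase genes, stood at 32.5, 29.5 and 25.5 TPM in Parental, 63.2, 68.8 and 64.6 in IDH1R132H and 82.5, 74.6 and 75.6 in IDH2R140Q, without overlap. It rose by 1.15 (limma adjusted p = 1.42e-07) and by 1.39 (adjusted p = 2.73e-08). CCNE2, a cyclin whose kinase activates NPAT, rose by 1.22 in IDH2R140Q (limma adjusted p = 5.01e-07). SLBP, the stem-loop binding protein, was not called, with a mean of 126 TPM in Parental and 129 to 145 in the edited lines. NPAT, the coactivator of the histone clusters, was not called either, with 9.37 TPM in Parental and 9.69 to 13.3 in the edited lines.

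Of 36 genes of DNA replication 1 was called against Parental, RPA3, a subunit of the single-strand DNA binding complex, which fell by 1.45 in IDH1R132H (limma adjusted p = 2.34e-05). PCNA, the sliding clamp, averaged 374 TPM in Parental and 368 to 474 in the edited lines and was not called. Of 19 histone chaperones 0 were called against Parental. Of 29 mitosis genes, UBE2C rose by 1.06 and TPX2 fell by 1.13 in IDH1R132H, CDK1 fell by 1.07 in IDH2R140Q, and 0 were called in the other lines against Parental. Beside these 3 lists, 7.74% of all genes rose and 3.09% fell in IDH1R132H, and 7.56% and 2.47% in IDH2R140Q. The shares were 2.68% and 2.1% in IDH2R140W, and 6.36% and 2.96% in IDH2R172K. After median-ratio scaling 0 of the 29 rose and 1 fell in IDH1R132H, 2 fell in IDH2R140Q and 1 in IDH2R172K, and 2 replication genes fell in IDH1R132H and 1 in IDH2R140Q. MKI67, a proliferation marker, was measured at 79.5, 41.7 and 70.7 TPM in Parental and at 122, 127 and 123 in IDH2R172K, above every other library. Its difference there of 0.99 was under the threshold, and its part in the histone values was not tested.

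Histone genes outside the clusters, whose mRNAs are mostly polyadenylated, gave a comparison on the same libraries. Of 10 tested, H1F0, the linker histone of non-dividing cells, fell by 1.45 in IDH1R132H (limma adjusted p = 9.71e-09) and by 1.04 in IDH2R140W (adjusted p = 6.45e-07), and the others were not called against Parental. The shares of all genes that fell in those lines were 3.09% and 2.1%. H1F0 stood at 208, 167 and 199 TPM in Parental, 71.7, 66.6 and 69.2 in IDH1R132H, 115, 111 and 118 in IDH2R140Q, 99.2, 93.4 and 84.3 in IDH2R140W and 114, 118 and 120 in IDH2R172K. Every edited line lay below Parental, IDH2R172K included, where HIST1H1C was higher. Of 9 tested protein-coding genes that are not histones and lie between the chromosome 6 members, 1 fell in IDH2R172K, against 2.96% of all genes. In the other lines 0 of the 9 were called against Parental. Between edited lines, 4 of the 9 were lower in IDH1R132H than in IDH2R140Q, 2 than in IDH2R140W and 3 than in IDH2R172K. In these pairs 0 of the 9 were higher, and 3.1%, 2.39% and 3.32% of all genes were lower. In the remaining pairs 0 of the 9 were called. The median difference of the 9 against Parental was -0.60 in IDH1R132H, 0.52 in IDH2R140Q, 0.21 in IDH2R140W and 0.01 for IDH2R172K. The median of all genes was 0.16, 0.23, 0.03 and 0.13 in the same order.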

How the data were processed

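Poly(A)-selected RNA of 15 TF-1 libraries was measured, grouped by the genotype in the labels. The authors deposited TPM values, 1 column per library. Tools listed in the submitters' processing notes, with no role stated, are STAR 2.7.3, HTSeq, RSEM and DESeq2, with the build hg38; annotation release and strand setting: not given in the sources used here. Of 63568 rows, 6 with ambiguous date symbols were left out and rows of 1 symbol were summed. Symbols with at least 1 TPM in 3 libraries were fitted as log2(TPM + 1) with limma 3.58.1 in R 4.3.3 (1 mean per group over all 15 libraries, variance trend). On data simulated for the comparison of IDH1R132H with Parental (14881 genes), the fit recovered 199 of 200 changed genes with 8 false calls. The changed genes were drawn from those well above the level of most members, with changes well above the log2 threshold of 1. The recovery therefore does not cover members of low level or changes near that threshold. TPM keeps no depth, so its precision is unknown.

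The members, the gene lists and the tests were chosen with earlier results of these data known, and the list of members with known polyadenylated transcripts was written from general knowledge. The rule named members called in any comparison, the 30 with the smallest adjusted p if more, the 10 highest, 3 on each side of the TPM threshold, and the called genes of each list (3 with the smallest adjusted p per comparison) with SLBP, NPAT, PCNA and MKI67. Transcripts and positions came from GENCODE release 29 and promoters from RefSeq. Same-numbered libraries mostly did not deviate together (1 of 30 correlations over 0.1). Parental with IDH2R140W gave 0.22, -0.29 and -0.24 for replicates 1, 2 and 3, and the other correlations lay between -0.05 and 0.09. Alternatives tried were a pseudocount of 0.1, other filters, median-ratio and quantile scaling, other variance models, a replicate block, rows kept apart, and leaving out each library. Leaving out both libraries that stood apart was added after seeing the data. A marker of other cell types is not reported here.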

Additional observations from a re-analysis of the deposited data

Results flagged for a closer look

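Pairs of edited lines grown in the same medium differed in 15 members by limma's test of the difference itself. Each is given here for the called pair with the largest absolute log2 difference. HIST1H1C (-2.72) was lower in IDH2R140W than in IDH2R172K, as were HIST1H2BJ (-1.60), HIST1H2AE (-1.51), HIST3H2A (-1.09) and HIST1H2AL (-1.03). HIST1H2AC (-2.23), HIST1H2BK (-2.05) and HIST1H2BD (-1.24) were lower in IDH2R140Q than in IDH2R172K. HIST1H2BL (-1.68), HIST1H2AJ (-1.62) and HIST1H3H (-1.10) were lower in IDH1R132H than in IDH2R172K, and HIST1H2BH (-1.94) was lower in IDH1R132H than in IDH2R140Q. HIST1H3D (2.14) was higher in IDH1R132H than in IDH2R140W, and HIST1H3J (1.29) and HIST1H3F (1.12) were higher in IDH2R140Q than in IDH2R140W.

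Of these, 5 lost their call when 1 library was left out. HIST3H2A was -0.93 without IDH2R140W replicate 2 and -0.96 without IDH2R172K replicate 2. HIST1H2AL was -0.97 without IDH2R172K replicate 2, -0.77 without its replicate 3, -0.98 without IDH2R140W replicate 2 and -0.97 without its replicate 3. HIST1H2AJ kept a difference of at least 1 but not its adjusted p without IDH1R132H replicate 1 (-1.52) or IDH2R172K replicate 1 (-1.42) or 2 (-1.48), and HIST1H3H was -0.87 without IDH2R172K replicate 2. HIST1H3F was 1.04 and 1.06 without IDH2R140Q replicate 1 and 2, and 1.00 and 0.79 without IDH2R140W replicate 2 and 3. Groups of 3 libraries were too small to look for single outlying values.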

How the results depend on the processing

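Over 59 member calls in 10 comparisons and 988 refits that tested them, 864 kept the call, 124 lost it in the same direction and 0 changed direction. In every setting that tested them 31 calls held. Leaving out 1 library accounted for 63 of the losses, quantile normalisation for 16 and median-ratio scaling for 14. Against Parental, median-ratio scaling gave 5 called members in IDH2R140Q and 4 in IDH2R172K (8 and 7 as reported), and quantile normalisation gave 4 and 4. A minimum of 5 TPM, which tests fewer members, gave 4 in IDH2R172K, a pseudocount of 0.1 gave 5 in IDH2R140W (3 as reported), and leaving out both libraries that stood apart gave 2 in IDH1R132H (4 as reported). Without 1 library the called members ranged from 2 (without Parental replicate 2) to 4 in IDH1R132H, from 6 to 8 in IDH2R140Q, from 2 to 4 in IDH2R140W and from 4 (without Parental replicate 3) to 8 in IDH2R172K, and those called in at least 1 pair of edited lines from 13 to 24 (24 without IDH2R140Q replicate 3, 15 as reported). The cause of these shifts was not tested, and the share of all genes in the refit that gave 24 was not computed. The replicate number as a block, which the labels do not tie to a shared culture or day, gave 3, 8, 3 and 7 against Parental and 16 in pairs.

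After median-ratio scaling, class sums moved by more than the spread between libraries for H1 in IDH2R140Q (21.5 TPM) and IDH2R172K (112), for H2A in IDH1R132H (53.7), IDH2R140Q (28.5) and IDH2R172K (79.8), for H2B in Parental (114), IDH2R140Q (55.0), IDH2R140W (66.3) and IDH2R172K (138), and for H4 in Parental (21.5). Because TPM keeps no read number, counting error at the low level of most members is not known.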
